A study of Mus musculus with 6 samples.

Results

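Expression of 10 genes of glucose uptake and glycolysis was described in nuclei of the mouse left ventricle. The genes are Slc2a1, Slc2a4, Hk1, Hk2, Pfkm, Pfkp, Pkm, Ldha, Ldhb and Pdha1, and their symbols matched 10 of the 33696 genes in the count tables, 1 row each. They were chosen by name, with earlier results of these data known. Single-nucleus RNA sequencing covered 6 libraries in 3 groups of 2, all from male mice aged 12 weeks. WT-CD mice were wild-type littermates on a control diet. R403Q-CD mice carried 1 mutant allele of the cardiac myosin heavy chain (Myh6+/R404Q in the labels, called R403Q), a model of hypertrophic cardiomyopathy, and ate the same diet. R403Q-EMPA mice carried the same allele and ate that diet with empagliflozin (EMPA), an inhibitor of the sodium-glucose cotransporter SGLT2, at 0.15 mg per g of diet or about 15 mg/kg. There was no wild-type group on EMPA. Mice started their diets when 9 to 10 weeks old and, per the study's methods, those taken for RNA sequencing were killed after 2 weeks; the labels name a longer period than these ages allow. The labels do not say whether the 2 libraries of a group came from separate mice, so p-values measure the spread between libraries, which may be technical.

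Glucose enters a heart muscle cell through the transporters GLUT1 (Slc2a1), which is present at the surface without a stimulus, and GLUT4 (Slc2a4), which moves to the surface after insulin or contraction. A hexokinase (Hk1, Hk2) then phosphorylates it, and phosphofructokinase, made of muscle-type (Pfkm), platelet-type (Pfkp) or liver-type subunits, carries out the committed step of glycolysis. Pyruvate kinase (Pkm) forms pyruvate, which lactate dehydrogenase interconverts with lactate through A subunits (Ldha) and B subunits (Ldhb), or which the pyruvate dehydrogenase complex, with Pdha1 as a subunit of its first enzyme, passes to the mitochondrial oxidation of glucose. The adult heart burns mainly fatty acids, and Hk2, GLUT4, Pfkm and Ldhb are known as forms of adult striated or oxidative muscle.

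Of 69249 barcodes, 46005 nuclei were kept, and the total was 31787308 to 45397128 UMIs per library. The kept nuclei formed 24 clusters, named by marker genes and given the ending "-like", since the cell types come from the counts and not from the labels; 10 classes had enough nuclei in every library to be tested. Levels are given in CPM (counts-per-million), the UMIs of a gene relative to all UMIs of its class in that library, scaled by TMM. Since capture differs between genes, CPM were compared within a gene and not between genes. Cardiomyocyte-like nuclei numbered 712 to 1601 per library, with median depths of 6889 to 12099.5 UMIs. They fell into 3 clusters, and 1 of them (cluster 14, with Ryr3 first and Nppa and Nppb last among its 10 leading genes; Nppa is also among those of cluster 7) held 43.5% and 28.4% of these nuclei in the R403Q-EMPA libraries, 7.94% and 16.0% in R403Q-CD and 3.56% and 2.95% in WT-CD. Over all genes the 2 replicates of WT-CD differed most from each other, while R403Q-EMPA replicate 1 stood apart in Nppa. Its cardiomyocyte-like nuclei held Nppa, a natriuretic peptide of stressed ventricle and of atrium, at 1472 CPM, against 33.5 to 358 in the other 5 libraries. The other atrial markers were low but followed the same order, being highest in R403Q-EMPA replicate 1 and next in replicate 2, except Bmp10, which had 0 UMIs in all 6 libraries. Myl7 was at 6.88 and 2.94 CPM in the R403Q-EMPA libraries against 0 to 0.353 in the other 4, Myl4 at 11.6 and 7.62 CPM in the R403Q-EMPA libraries against 4.59 to 4.98 in the other 4, Dkk3 at 3.86 and 1.30 CPM in the R403Q-EMPA libraries against 0.171 to 0.299 in the other 4 and Sln at 1.19 and 0.173 CPM in the R403Q-EMPA libraries against 0 in each of the other 4. Markers of atrial cells thus moved with the treated group, and their part in the results was not tested. Dkk3 was also among the 10 leading genes of a fibroblast-like cluster that was largest in R403Q-EMPA replicate 1, so it is not particular to atrial cells here. Calls that rest on R403Q-EMPA replicate 1 are also given without it. Pairs of libraries shared 23 to 56 barcodes.

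The sequences before 3 of the genes are shown first, because Pfkp, Slc2a1 and Ldha (on chromosomes 13, 4 and 7; ENSMUSG00000021196, ENSMUSG00000028645 and ENSMUSG00000063229 in the files) had the smallest p-values of the members when R403Q-EMPA was compared with WT-CD in cardiomyocyte-like nuclei. Each window is RefSeq's, on GRCm38.p6, a build older than the GRCm39 of the counts, and runs 5′ to 3′ from 250 bases before to 50 bases after an annotated start. Capitals mark the letters ACGTG and GCGTG on either strand (CACGT and CACGC when read on the opposite strand), the core of the hypoxia response element, which also occurs inside E-boxes.
Pfkp, chr13:6648722-6649021, minus strand: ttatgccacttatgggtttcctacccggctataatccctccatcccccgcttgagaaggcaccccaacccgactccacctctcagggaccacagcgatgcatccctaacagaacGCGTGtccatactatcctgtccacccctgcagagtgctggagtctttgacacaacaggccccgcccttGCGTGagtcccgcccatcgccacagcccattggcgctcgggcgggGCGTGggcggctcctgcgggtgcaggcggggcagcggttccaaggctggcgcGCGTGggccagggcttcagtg
Slc2a1, chr4:119108495-119108794, plus strand: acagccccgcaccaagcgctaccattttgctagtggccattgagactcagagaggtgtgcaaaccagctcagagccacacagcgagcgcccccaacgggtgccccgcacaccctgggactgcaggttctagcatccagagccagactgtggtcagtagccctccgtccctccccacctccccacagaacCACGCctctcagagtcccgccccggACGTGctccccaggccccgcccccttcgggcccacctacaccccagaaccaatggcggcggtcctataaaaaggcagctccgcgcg
Ldha, chr7:46845554-46845853, plus strand: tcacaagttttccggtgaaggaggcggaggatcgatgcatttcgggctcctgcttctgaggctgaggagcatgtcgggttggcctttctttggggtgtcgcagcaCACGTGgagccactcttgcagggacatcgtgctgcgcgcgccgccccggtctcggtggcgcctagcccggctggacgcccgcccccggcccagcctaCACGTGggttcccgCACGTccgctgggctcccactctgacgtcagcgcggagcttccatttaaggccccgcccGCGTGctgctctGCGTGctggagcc

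The Pfkp window held 4 matches, all GCGTG on the strand of the gene, and that of Slc2a1 held 2. The Ldha window shown held 7, of which 4 lie in pairs that overlap at a CACGTG. Another window of Ldha, at chr7:46846832-46847131, held 2 and no CACGTG. The matches of Slc2a1 began at −61 and −36 from the start. Over all 32851 such windows, 43.8% held at least 1 match. Of the 15 windows of members, 12 did, and all 9 members with a window had at least 1 that did; several members have more than 1 start, and windows of Pfkm overlap. No window was at hand for Slc2a4. Such a match is a run of letters and not a site of binding.

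Both transporters were measured in every class, and they differed in where they were high. Slc2a4 was highest in cardiomyocyte-like nuclei, at 80.2 ± 9.84 CPM (mean ± SD, n = 6 libraries), with a lowest, median and highest library of 64.4, 80.9 and 94.7 CPM. The mural cells of the vessels, which wrap around the endothelium, came next. Smooth muscle-like nuclei had 64.7 ± 20.8 CPM of Slc2a4 from 44 UMIs, and pericyte-like nuclei 44.9 ± 3.01 CPM. The range of the pericyte-like libraries, 41.9 to 49.7 CPM, lay below that of the cardiomyocyte-like libraries, whereas the smooth muscle-like libraries overlapped both. In fibroblast-like, endothelial-like, endocardial-like, lymphatic endothelial-like and myeloid-like nuclei Slc2a4 stood at 4.21 to 6.09 CPM, 5.25% to 7.60% of its cardiomyocyte-like level.

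The share that free RNA could add was read from cardiomyocyte marker genes, which other cells should lack. The summed level of all 9 markers in these 5 classes was 2.88% to 4.13% of that in cardiomyocyte-like nuclei, and 3.92% in pericyte-like nuclei. The Slc2a4 level in pericyte-like nuclei, at 56.1% of the cardiomyocyte-like level, was far above that share. The atrial list, which is nearly all Nppa here, gave a larger one, 23.6% to 41.3% over the other 9 classes and 31.6% in pericyte-like nuclei. Which share applies to a given member was not tested. Lymphoid-like nuclei had a cardiomyocyte marker share of 10.0%, with R403Q-EMPA replicate 2 at 17028 CPM of summed markers and the other 5 libraries at 2626 to 5170.3.

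Slc2a1 was sparsely counted. Cardiomyocyte-like nuclei held 9.08 ± 4.21 CPM, from 637 UMIs, and their libraries ran from 4.41 to 16.9 CPM. Fibroblast-like nuclei held 5.75 ± 1.72 CPM, endothelial-like nuclei 6.54 ± 1.73 and endocardial-like nuclei 9.27 ± 2.28. All of these ranges overlapped. Higher means were seen in lymphoid-like (25.9 CPM), smooth muscle-like (25.8) and epicardial-like nuclei (22.4), each from only 20 to 27 UMIs.

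The hexokinases divided the classes differently from each other. Hk2, the insulin-responsive form of muscle and fat, was highest in cardiomyocyte-like nuclei at 171 ± 22.5 CPM (lowest, median and highest library 137, 170.2 and 205). Myeloid-like nuclei were second at 59.1 ± 11.8 CPM, with a range of 47.2 to 81.0 that stood apart from the cardiomyocyte-like range. In endothelial-like, pericyte-like, lymphatic endothelial-like and endocardial-like nuclei Hk2 was at 5.12 to 6.95 CPM, which is 2.99% to 4.06% of its cardiomyocyte-like level and so within the share of the cardiomyocyte markers. Those levels were not read as expression of Hk2 in these classes. Hk1, the form found in most tissues, was more even. It was at 121 ± 30.2 CPM in cardiomyocyte-like, 93.1 ± 7.38 in endothelial-like, 85.8 ± 2.28 in endocardial-like, 49.4 ± 5.08 in fibroblast-like and 46.8 ± 10.9 in myeloid-like nuclei. In the order of the 10 class means of Hk1, a single step separated neighbours whose libraries did not overlap, that from lymphatic endothelial-like to fibroblast-like nuclei.

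The phosphofructokinase subunits showed the same kind of contrast. Pfkm was at 165 ± 13.1 CPM in cardiomyocyte-like nuclei (lowest, median and highest library 141, 168 and 179) and stood apart from every other class. The next class was smooth muscle-like nuclei at 45.6 ± 13.7 CPM, and fibroblast-like nuclei held 22.8 ± 1.43 CPM. Pfkm in endothelial-like, endocardial-like and myeloid-like nuclei was 11.0% to 11.4% of its cardiomyocyte-like level, above the share of the cardiomyocyte markers and below that of the atrial list. For Pfkp the order was another one. Its highest means were in epicardial-like (116 ± 20.9 CPM) and smooth muscle-like nuclei (114 ± 48.5), with 112 and 82 UMIs in all. Cardiomyocyte-like nuclei held 77.1 ± 43.3 CPM, with the widest spread of the large classes, from 37.7 to 160.4. These means pool 3 groups that differ. Fibroblast-like nuclei held 61.1 ± 7.18 CPM and endothelial-like nuclei 47.5 ± 14.3. In the WT-CD libraries alone the order of these last classes was another, with means of 46.3 CPM in cardiomyocyte-like, 56.1 in fibroblast-like and 36.3 in endothelial-like nuclei. No neighbours in the order of Pfkp means were separate.

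At the end of the pathway, the lactate dehydrogenase subunits again differed. Ldhb, the subunit common in oxidative muscle, was at 206 ± 22.6 CPM in cardiomyocyte-like nuclei (lowest, median and highest library 177, 200.5 and 232), apart from pericyte-like nuclei, which came second at 91.0 ± 13.8 CPM with a range of 73.2 to 106. Fibroblast-like, endothelial-like, endocardial-like, lymphatic endothelial-like and myeloid-like nuclei held 25.2 to 32.4 CPM. Ldha had its highest mean in lymphoid-like nuclei, 82.9 ± 31.7 CPM from 80 UMIs. It was at 41.4 ± 8.32 CPM in cardiomyocyte-like, 61.0 ± 14.1 in endothelial-like, 50.0 ± 8.32 in endocardial-like, 41.9 ± 9.55 in pericyte-like and 37.1 ± 8.05 in fibroblast-like nuclei, and every pair of neighbours in its order overlapped. The lymphoid-like libraries (49.1 to 129 CPM) stood apart from those of lymphatic endothelial-like nuclei (31.6 to 39.3). Pkm had the highest mean in epicardial-like nuclei, 128 ± 35.1 CPM, followed by cardiomyocyte-like nuclei at 108 ± 12.7 and smooth muscle-like nuclei at 86.8 ± 26.8, and the remaining classes ran from 49.1 to 75.2 CPM. Pdha1 was at 83.7 ± 8.61 CPM in cardiomyocyte-like nuclei, against 51.5 ± 8.60 in endocardial-like and 39.5 ± 4.91 in endothelial-like nuclei.

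**Figure D1:**
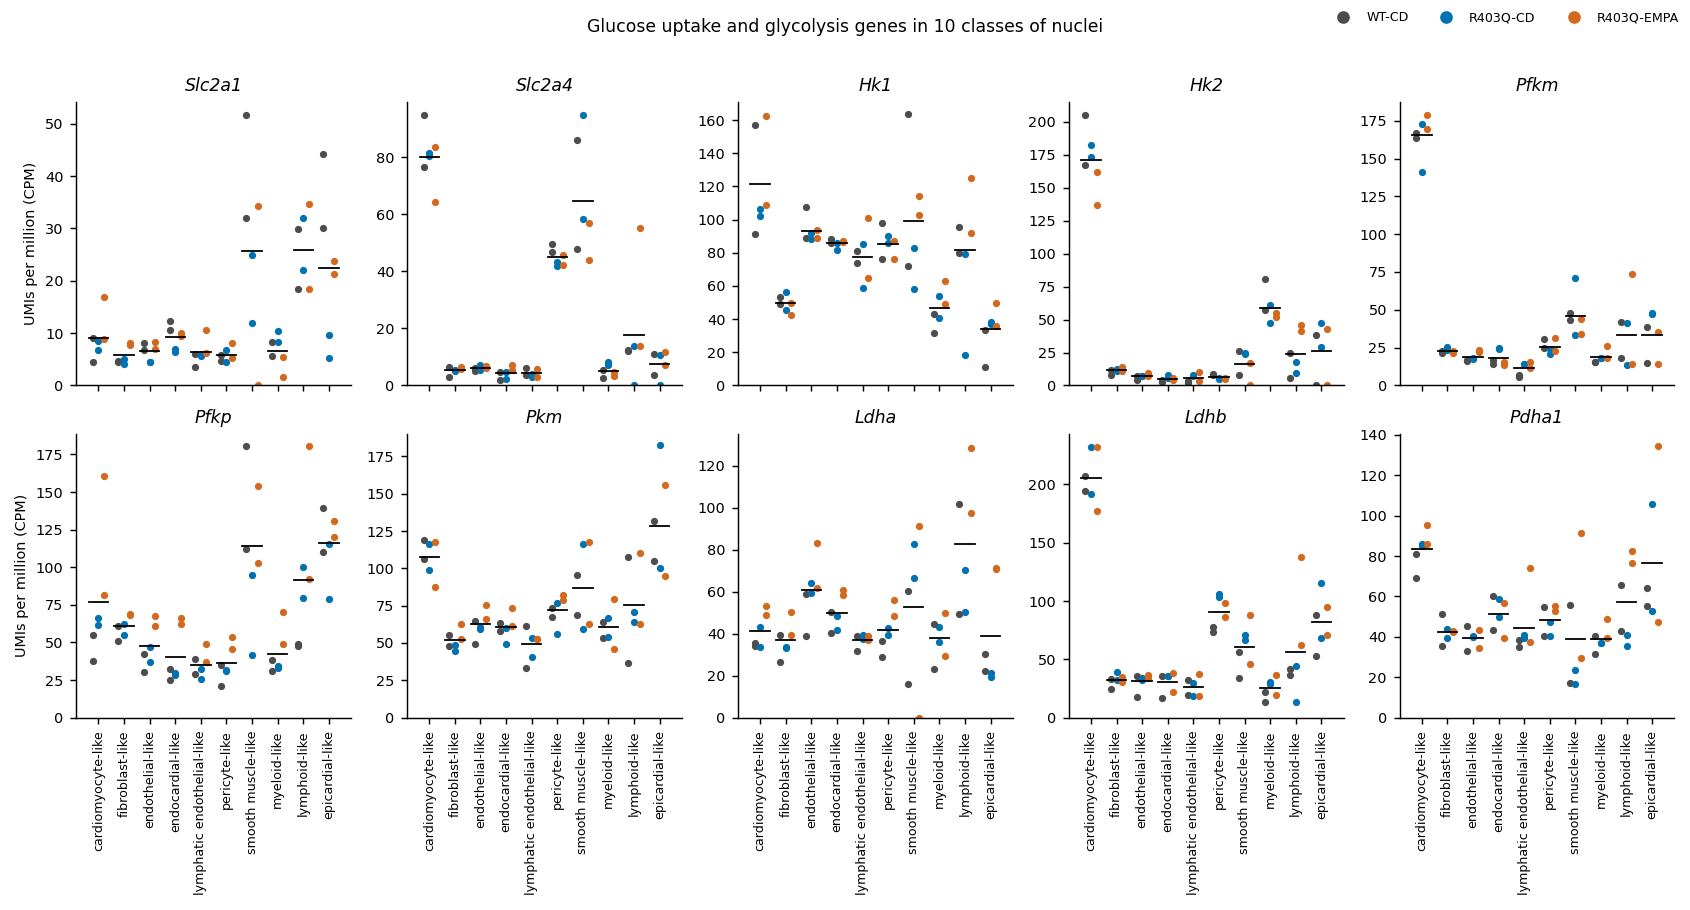
Level of each of the 10 genes in CPM (y axis, linear, from 0, its own scale per gene) in 10 classes of nuclei (x axis), with 1 point per library coloured by group and a line at the mean of the 6 libraries. Hk2, Pfkm, Ldhb and Slc2a4 are highest in cardiomyocyte-like nuclei, at means of 171, 165, 206 and 80.2 CPM, while Ldha lies between 37.1 and 82.9 CPM in all classes.

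Likeness between genes was described by Pearson's r of log2(mean CPM + 1) over the 10 classes, against the other members and the listed glucose genes (55 genes per member). The points share libraries and depth, so no p is given. Pfkm was most like Mpc1 (r = 0.93) and Ldhb (r = 0.89), Slc2a4 most like Pdhb (r = 0.92) and Mpc1 (r = 0.85) and Ldhb most like Pfkm (r = 0.89) and Mpc1 (r = 0.85). Mpc1 is a subunit of the mitochondrial pyruvate carrier and Pdhb a subunit of pyruvate dehydrogenase. Pfkp was most like Slc2a12 (r = 0.86) and Slc2a1 (r = 0.86), and Slc2a1 most like Pfkp (r = 0.86) and Aldoa (r = 0.75). Hk2 was most like Pfkfb2 (r = 0.81) and Pdhx (r = 0.78), and Hk1 most like Pygm (r = 0.80) and Pdhb (r = 0.64). The nearest genes were Slc16a1 (r = 0.87) and Gpi1 (r = 0.82) for Pkm and Slc16a1 (r = 0.85) and Pgk1 (r = 0.85) for Pdha1. Ldha had the lowest values of the 10 members, with Gapdh (r = 0.65) and Pdk1 (r = 0.60).

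Within pairs of genes for the same step, the share of 1 gene in the UMIs of the pair was compared between classes and groups. Because capture differs between the 2 genes, only differences in a share are read. Pfkm made up 69.7% ± 10.1 (SD, n = 6) of Pfkm and Pfkp UMIs in cardiomyocyte-like nuclei and 27.4% ± 3.21 in fibroblast-like nuclei. Hk2 made up 58.8% ± 7.54 of Hk1 and Hk2 UMIs in cardiomyocyte-like and 55.8% ± 9.61 in myeloid-like nuclei, but 7.01% ± 1.70 in endothelial-like nuclei. Slc2a4 made up 89.7% ± 5.35 of transporter UMIs in cardiomyocyte-like and 88.5% ± 2.85 in pericyte-like nuclei, against 48.3% ± 8.06 in fibroblast-like nuclei. Ldha made up 16.8% ± 3.28 of Ldha and Ldhb UMIs in cardiomyocyte-like and 31.4% ± 4.50 in pericyte-like nuclei, against 65.8% ± 3.52 in endothelial-like nuclei.

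Between the groups, these shares moved in cardiomyocyte-like nuclei as follows. Pfkm made up 81.6% and 74.8% of its pair in the WT-CD libraries, 72.2% and 69.6% in those of R403Q-CD and 51.3% and 68.7% in those of R403Q-EMPA. R403Q-EMPA minus WT-CD came to −18.2 percentage points (pooled SD 9.32), R403Q-CD minus WT-CD to −7.28 (pooled SD 3.63) and R403Q-EMPA minus R403Q-CD to −10.9 (pooled SD 8.78). Ldha made up 14.2% and 15.4% of its pair in WT-CD, 15.7% and 15.0% under R403Q-CD and 23.1% and 17.4% under R403Q-EMPA, so that R403Q-EMPA minus WT-CD came to 5.47 points (pooled SD 2.94) and R403Q-EMPA minus R403Q-CD to 4.92 (pooled SD 2.89). In both pairs the R403Q-EMPA libraries lay on 1 side of all others, and replicate 1 lay farther out. Without it, R403Q-EMPA minus WT-CD was −9.49 points for the Pfkm share and 2.6 for the Ldha share, and R403Q-EMPA minus R403Q-CD was −2.21 and 2.05. The exact permutation p, two-sided, was 0.33 for each difference named so far with all libraries, which is the smallest that 2 against 2 libraries allow. No p is given for the differences without replicate 1. For R403Q-CD minus WT-CD the Ldha share differed by 0.543 points (pooled SD 0.716, exact permutation p = 0.67). Slc2a4 made up 91.3% and 94.5% of transporter UMIs in WT-CD, 92.4% and 90.4% under R403Q-CD and 79.2% and 90.5% under R403Q-EMPA, where a single library, replicate 1, was low. The differences were −1.54, −6.50 and −8.04 points for R403Q-CD minus WT-CD, R403Q-EMPA minus R403Q-CD and R403Q-EMPA minus WT-CD (pooled SD 1.93, 5.70 and 5.85; exact permutation p = 0.67, 0.67 and 0.33), and without replicate 1 the last 2 were −0.892 and −2.43. The Hk2 share was 69.2% and 51.6% in WT-CD, 64.1% and 61.9% under R403Q-CD and 49.9% and 55.8% under R403Q-EMPA. The WT-CD libraries lay farther apart than those of the other groups, and the differences in the same order were 2.61, −10.1 and −7.53 points (exact permutation p = 1, 0.33 and 0.67), with the last 2 at −7.22 and −4.61 without R403Q-EMPA replicate 1.

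R403Q-CD was set against WT-CD to see what differed in mutant hearts without the drug. In cardiomyocyte-like nuclei the members differed little. None of the 10 was called by edgeR's quasi-likelihood test with Benjamini-Hochberg adjustment (adjusted p under 0.05; 0.105% of the 14345 genes tested were called), none had an unadjusted p under 0.05 (6.77% of all genes did), and DESeq2 called 0 as well (0.683% of all genes). Their log2 fold changes ran from −0.25 to 0.47 with a median of 0.01, beside −0.0132 over all genes. With no filter on mitochondrially encoded UMIs the median was 0.18, with 7 of 10 above 0 in place of 5. Both R403Q-CD libraries lay above both WT-CD libraries for 2 members, Pfkp and Pdha1, and below for none; 34.1% of all genes tested had groups that did not overlap. Pfkp was at 37.7 and 55.0 CPM in the WT-CD libraries and 66.5 and 61.5 in those of R403Q-CD. The log2 fold change was 0.47 ± 0.29 (SE; unadjusted p = 0.140, edgeR adjusted p = 0.860). Pdha1 was at 81.2 and 69.0 CPM in the WT-CD libraries and 85.9 and 84.9 in those of R403Q-CD, with a log2 fold change of 0.19 ± 0.15 (edgeR adjusted p = 0.914). With no filter on mitochondrially encoded UMIs it was 0.74 (adjusted p = 0.0155).

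For GLUT4, hexokinase 2 and the muscle subunit of phosphofructokinase, the values of this comparison were close. Slc2a4 was at 94.7 and 76.5 CPM in the WT-CD libraries and 81.4 and 80.3 in those of R403Q-CD (log2 fold change −0.08 ± 0.17). Hk2 was at 205 and 167 CPM in the WT-CD libraries and 183 and 173 in those of R403Q-CD (−0.07 ± 0.17). Pfkm was at 167 and 163 CPM in the WT-CD libraries and 173 and 141 in those of R403Q-CD (−0.07 ± 0.16). In each the R403Q-CD libraries overlapped those of WT-CD. Over all tested classes, 80 of the 100 pairs of a member and a class passed the filter on low counts; edgeR called 0 of them and DESeq2 called 0 (0.0190% of all pairs of a gene and a class were called by edgeR), and 4 had an unadjusted p under 0.05, 2 higher and 2 lower, near the share of 4.31% over all pairs. Those were Ldhb in pericyte-like nuclei (log2 fold change 0.47 ± 0.15), Pfkm in endocardial-like nuclei (0.64 ± 0.26), Slc2a1 in endothelial-like nuclei (−0.75 ± 0.28) and Pfkp in smooth muscle-like nuclei (−1.16 ± 0.55). Their edgeR adjusted p were 0.891 to 1.

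R403Q-EMPA was set against R403Q-CD to see what differed with the drug among mutant hearts. In cardiomyocyte-like nuclei no member was called by edgeR or by DESeq2 (0.258% of all genes were called by edgeR), and 2 of 10, Pfkp and Ldha, had an unadjusted p under 0.05, both higher (12.9% of all genes had such a p). The median log2 fold change of the members was 0.12, beside 0.0092 over all genes. With no filter on mitochondrially encoded UMIs it was −0.19, with 4 of 10 above 0 in place of 6. For 5 members (Pfkp, Ldha, Slc2a1, Hk1 and Pdha1) both R403Q-EMPA libraries were above both R403Q-CD libraries, and for 1, Hk2, both were below; 52.2% of all genes tested had groups that did not overlap.

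Pfkp in cardiomyocyte-like nuclei was at 37.7 and 55.0 CPM in the WT-CD libraries, 66.5 and 61.5 in those of R403Q-CD and 160.4 and 81.4 in those of R403Q-EMPA. Both R403Q-EMPA libraries were above the other 4, with replicate 1 the highest. The log2 fold change against R403Q-CD was 0.92 ± 0.28 (SE; 1.89-fold, edgeR adjusted p = 0.219). Without R403Q-EMPA replicate 1 it was 0.34 (adjusted p = 0.840). Ldha was at 34.2 and 35.3 CPM in the WT-CD libraries, 43.2 and 33.8 in those of R403Q-CD and 53.2 and 48.8 in those of R403Q-EMPA. Its R403Q-EMPA libraries were also above the other 4, by less, and the log2 fold change was 0.41 ± 0.16 (1.33-fold, unadjusted p = 0.0284, edgeR adjusted p = 0.323). With no filter on mitochondrially encoded UMIs it was −0.16, and R403Q-CD against WT-CD was then 0.97 (adjusted p = 0.0321), so the direction against R403Q-CD rests on that filter.

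Slc2a1 was at 9.08 and 4.41 CPM in the WT-CD libraries, 6.73 and 8.57 in those of R403Q-CD and 16.9 and 8.80 in those of R403Q-EMPA. Only replicate 1 of R403Q-EMPA stood clear of the rest. The log2 fold change against R403Q-CD was 0.75 ± 0.36 (unadjusted p = 0.0662), and without that library it was 0.19. Hk2 was lower in both R403Q-EMPA libraries, at 162 and 137 CPM against 183 and 173 in those of R403Q-CD, but the difference of −0.25 ± 0.17 did not pass (unadjusted p = 0.162). Hk1 was at 91.3 and 157 CPM in the WT-CD libraries, 102 and 106 in those of R403Q-CD and 162 and 109 in those of R403Q-EMPA. The highest libraries were 1 of WT-CD and 1 of R403Q-EMPA, and the log2 fold change was 0.38 ± 0.26 (unadjusted p = 0.173).

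The other 5 members had log2 fold changes smaller than their SE in this comparison. Pfkm was at 167 and 163 CPM in the WT-CD libraries, 173 and 141 in those of R403Q-CD and 169 and 179 in those of R403Q-EMPA (0.15 ± 0.16). Slc2a4 was at 94.7 and 76.5 CPM in the WT-CD libraries, 81.4 and 80.3 in those of R403Q-CD and 64.4 and 83.5 in those of R403Q-EMPA (−0.13 ± 0.17), with replicate 1 of R403Q-EMPA the lowest of the 6 libraries. Pkm was at 107 and 119 CPM in the WT-CD libraries, 116 and 98.7 in those of R403Q-CD and 118 and 87.2 in those of R403Q-EMPA (−0.07 ± 0.18), and the lowest library was the other one of R403Q-EMPA. Ldhb was at 207 and 194 CPM in the WT-CD libraries, 232 and 192 in those of R403Q-CD and 177 and 232 in those of R403Q-EMPA (−0.05 ± 0.18), with the R403Q-CD and R403Q-EMPA groups both spread wider than their difference. Pdha1 was at 81.2 and 69.0 CPM in the WT-CD libraries, 85.9 and 84.9 in those of R403Q-CD and 86.2 and 95.3 in those of R403Q-EMPA (0.09 ± 0.15), where both R403Q-EMPA libraries were the highest of the 6, replicate 1 by a small margin.

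**Figure D2:**
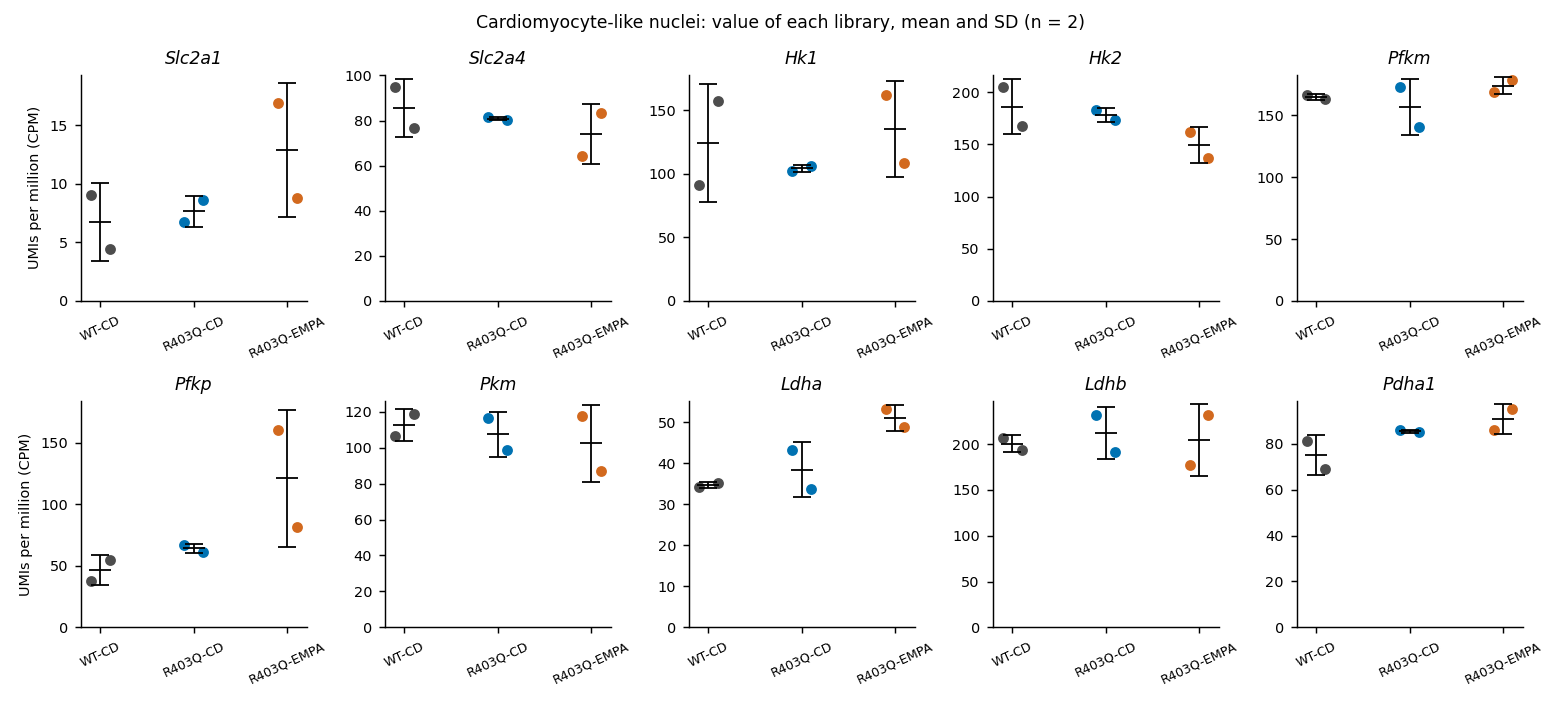
Level of each gene in cardiomyocyte-like nuclei in CPM (y axis, from 0) for the 3 groups (x axis), with 1 point per library and the mean and SD of the 2 libraries in black. The R403Q-EMPA libraries lie above all others for Pfkp (160.4 and 81.4 CPM) and Ldha (53.2 and 48.8 CPM) and below all others for Hk2 (162 and 137 CPM).

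R403Q-EMPA against WT-CD combines the mutation and the drug. In cardiomyocyte-like nuclei 1 of 10 members was called, Pfkp, which was higher (4.15% of all genes were called), and 3, Pfkp, Ldha and Slc2a1, had an unadjusted p under 0.05, all higher (19.5% of all genes had such a p). The median log2 fold change was 0.10, beside 0.0006 over all genes, and 4 members (Pfkp, Ldha, Pdha1 and Pfkm) had both R403Q-EMPA libraries above both WT-CD libraries and 1, Hk2, below (47.3% of all genes tested had groups that did not overlap). This comparison shares the R403Q-EMPA libraries with the one before. Pfkp had a log2 fold change of 1.39 ± 0.29 (SE; 2.62-fold, edgeR adjusted p = 0.0311). The call was lost without R403Q-EMPA replicate 1 (0.82, adjusted p = 0.169), without WT-CD replicate 1 (1.14, adjusted p = 0.0927) and in a fit of only the 4 libraries compared (1.39, adjusted p = 0.0559).

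Ldha was 1.47-fold higher in R403Q-EMPA than in WT-CD by the fit (log2 fold change 0.56 ± 0.16, unadjusted p = 0.00645, edgeR adjusted p = 0.0900), and its groups did not overlap. Slc2a1 had a log2 fold change of 0.93 ± 0.38 (unadjusted p = 0.0338, edgeR adjusted p = 0.213), with an R403Q-EMPA library below 1 of the WT-CD libraries, and without R403Q-EMPA replicate 1 it was 0.38. Hk2 was lower by the fit, at −0.32 ± 0.17, with an unadjusted p of 0.0862 and an adjusted p of 0.329 from edgeR. Pdha1 had 0.27 ± 0.15 (unadjusted p = 0.0941). Slc2a4 had −0.21 ± 0.17, Pkm −0.14 ± 0.18, Hk1 0.13 ± 0.26, Pfkm 0.08 ± 0.16 and Ldhb 0.03 ± 0.18, all with adjusted p above 0.5.

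**Figure D3:**
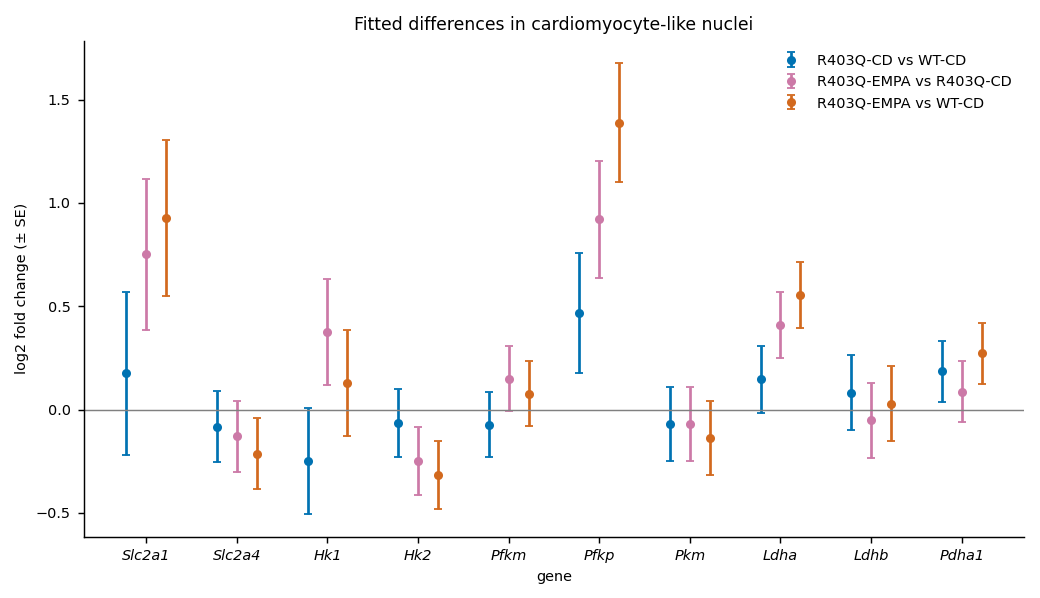
Fitted log2 fold change (y axis; bars, SE from edgeR) of each gene (x axis) in cardiomyocyte-like nuclei for the 3 comparisons, of which those with R403Q-EMPA share libraries. Pfkp has the highest value in each comparison, 0.47, 0.92 and 1.39.

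Pfkp was then followed through the cardiomyocyte-like clusters, because their shares differed between groups. Levels in a cluster are CPM of its own UMIs, without TMM scaling. In the largest (cluster 9) Pfkp was at 38.7 and 49.8 CPM in the WT-CD libraries, 60.8 and 48.8 in those of R403Q-CD and 111 and 65.4 in those of R403Q-EMPA. In cluster 14 it was at 80.1 and 61.0, 93.4 and 96.0 and 206 and 115 CPM in the same order of groups. The WT-CD libraries had only 40 and 21 nuclei in this cluster, with 28 and 20 UMIs of Pfkp. The remaining one (cluster 7) held 18.0 and 51.6, 84.9 and 90.2 and 174 and 71.2 CPM, from only 6 and 15 UMIs in the WT-CD libraries. Clusters 9 and 14 thus had their highest values in the R403Q-EMPA libraries, whereas in cluster 7 replicate 2 of R403Q-EMPA lay below both R403Q-CD libraries, and within every library cluster 14 was higher than cluster 9. In a fit of cluster 9 alone, an alternative chosen after seeing the data, the log2 fold change of R403Q-EMPA against WT-CD was 0.91 (edgeR adjusted p = 0.0856) in place of 1.39, and against R403Q-CD 0.62 (adjusted p = 0.385). The part of the cluster shares in the class value was not tested beyond that. Nppa in the cardiomyocyte-like nuclei of the same libraries was at 63.0 and 33.5 CPM in the WT-CD libraries, 139 and 237 in those of R403Q-CD and 1472 and 358 in R403Q-EMPA. Its groups stood in the same order as those of Pfkp.

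Higher Pfkp in R403Q-EMPA was not limited to cardiomyocyte-like nuclei. Endocardial-like nuclei, from the inner lining of the heart, gave the other calls. There Pfkp was at 25.1 and 32.4 CPM in the WT-CD libraries, 29.5 and 28.4 in those of R403Q-CD and 66.2 and 62.1 in those of R403Q-EMPA. The R403Q-EMPA libraries lay close together and far above the other 4. The log2 fold change was 1.15 ± 0.21 against R403Q-CD (edgeR adjusted p = 0.0300; 0.798% of 11522 genes were called) and 1.16 ± 0.20 against WT-CD (adjusted p = 0.0145; 2.11% called). R403Q-CD differed from WT-CD by 0.00 ± 0.22. Without R403Q-EMPA replicate 1 the values were 1.10 (adjusted p = 0.226) and 1.11 (adjusted p = 0.120), so the size held and the calls did not. By DESeq2 the call against R403Q-CD was lost as well (adjusted p = 0.0585). Cardiomyocyte marker genes in endocardial-like nuclei stood at 3.33% of their cardiomyocyte-like level and the atrial list at 27.0%, against 52.7% for Pfkp. These are shares of mean levels over all libraries. What free RNA could add to a difference between groups was not tested in any class.

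Over the 10 tested classes, both R403Q-EMPA libraries were above both R403Q-CD libraries for Pfkp in 9 (22.5% of all pairs of a gene and a class), the exception being lymphoid-like nuclei. They were above both WT-CD libraries in 7 (19.8% of all pairs). The unadjusted p was under 0.05 in 5 and 6 classes with the difference above 0 (4.85% and 6.20% of all pairs), with median log2 fold changes of 0.64 and 0.81. Classes of 1 library share that library and its free RNA and are not independent. Endothelial-like nuclei had Pfkp at 30.2 and 42.4 CPM in the WT-CD libraries, 46.7 and 37.2 in those of R403Q-CD and 67.6 and 61.0 in those of R403Q-EMPA (log2 fold change against WT-CD 0.82 ± 0.19, edgeR adjusted p = 0.112). A cluster of this class, with Sox17 and Cxcl12 among its leading genes, held 894 of 2876 and 155 of 1274 nuclei in the R403Q-EMPA libraries. It held 85 of 1677 and 190 of 2297 in WT-CD and 270 of 2325 and 246 of 2035 in R403Q-CD. The part of this in the endothelial-like values here and below was not tested. Pericyte-like nuclei had 20.9 and 34.8 CPM in the WT-CD libraries, 31.7 and 31.1 in those of R403Q-CD and 45.6 and 53.6 in those of R403Q-EMPA (0.83 ± 0.25, adjusted p = 0.131). Myeloid-like nuclei had 38.4 and 30.7 CPM in the WT-CD libraries, 34.2 and 33.2 in those of R403Q-CD and 70.0 and 49.1 in those of R403Q-EMPA (0.81 ± 0.26, adjusted p = 0.248). In these 3 classes the R403Q-EMPA libraries were above the other 4, without passing the adjusted threshold. Fibroblast-like nuclei moved least of the large classes, at 51.1 and 61.1 CPM in the WT-CD libraries, 62.3 and 54.8 in those of R403Q-CD and 69.0 and 68.4 in those of R403Q-EMPA (0.29 ± 0.14). Smooth muscle-like nuclei (−0.11 ± 0.47) and epicardial-like nuclei (−0.02 ± 0.40), each with a WT-CD library as its highest, had log2 fold changes against WT-CD that were smaller than their SE.

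**Figure D4:**
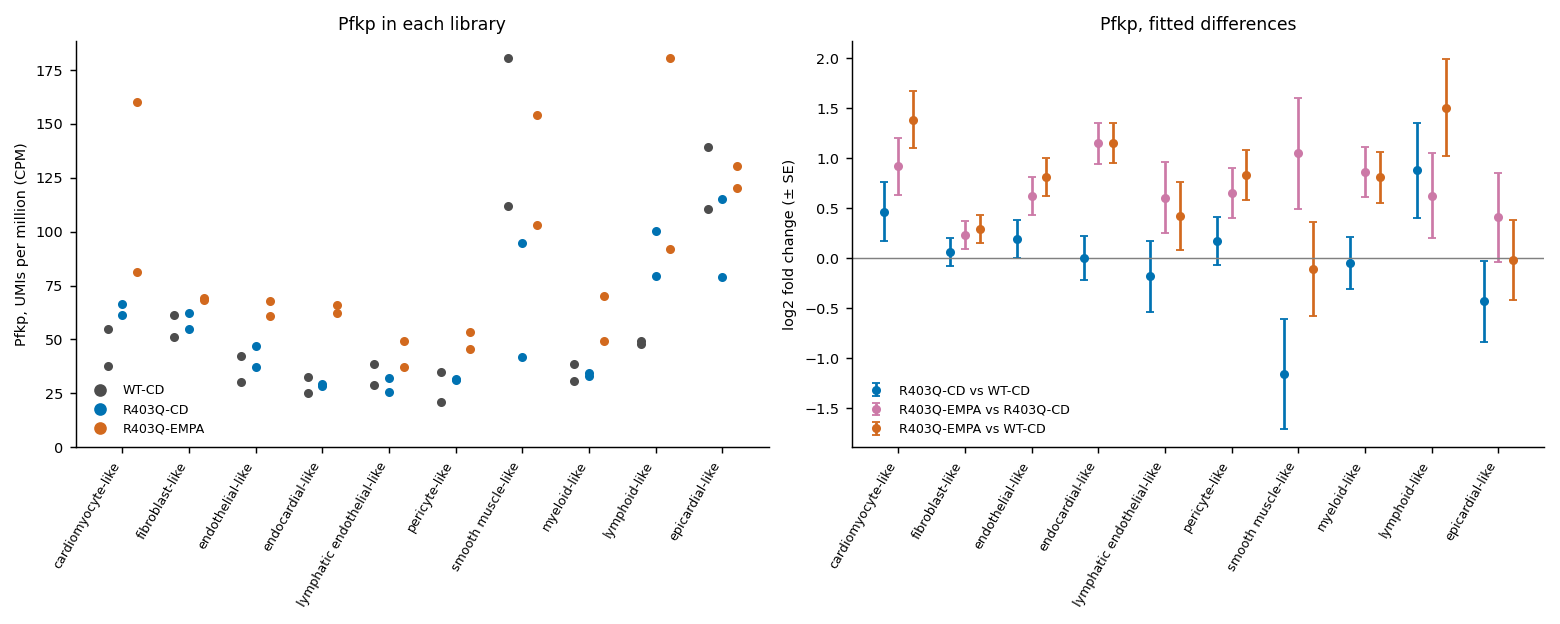
Pfkp in 10 classes of nuclei (x axes): at left CPM in each library (y axis, from 0), at right the fitted log2 fold change with its SE for the 3 comparisons. In endocardial-like nuclei the R403Q-EMPA libraries lie at 66.2 and 62.1 CPM and the other 4 between 25.1 and 32.4.

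Over all tested classes, edgeR called 1 of 80 pairs of a member and a class for R403Q-EMPA against R403Q-CD (0.321% of all pairs) and 2 for R403Q-EMPA against WT-CD (1.41% of all pairs), all of them Pfkp. At an unadjusted p under 0.05 there were 10 and 12 of 80 pairs (9.74% and 12.7% of all pairs had such a p, 4.85% and 6.20% with the difference above 0), all higher except 1 against R403Q-CD, Pfkm in endocardial-like nuclei. DESeq2 called 0 and 2, and its share over all pairs is not given. In cardiomyocyte-like nuclei it called 1.49% and 5.15% of all genes. Slc2a1 was among the pairs with an unadjusted p under 0.05 in fibroblast-like nuclei, at 4.56 and 4.73 CPM in the WT-CD libraries, 5.15 and 4.19 in those of R403Q-CD and 7.70 and 8.15 in those of R403Q-EMPA. Both R403Q-EMPA libraries were above the other 4, and the log2 fold change was 0.76 ± 0.26 against R403Q-CD (edgeR adjusted p = 0.267) and 0.77 ± 0.25 against WT-CD (adjusted p = 0.213). In endothelial-like nuclei Slc2a1 was at 8.18 and 6.86 CPM in the WT-CD libraries, 4.48 and 4.41 in those of R403Q-CD and 8.30 and 7.01 in those of R403Q-EMPA. Here the R403Q-CD libraries were the low ones, and R403Q-EMPA and WT-CD overlapped; the log2 fold change was 0.81 ± 0.28 for R403Q-EMPA against R403Q-CD (edgeR adjusted p = 0.391).

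Ldha was above WT-CD in both R403Q-EMPA libraries in 6 of 10 classes (19.8% of all pairs of a gene and a class) and had an unadjusted p under 0.05 in 3 (6.20% of all pairs, higher). In pericyte-like nuclei it was at 36.3 and 28.7 CPM in the WT-CD libraries, 42.5 and 39.5 in those of R403Q-CD and 56.1 and 48.4 in those of R403Q-EMPA, with a log2 fold change against WT-CD of 0.68 ± 0.21 (edgeR adjusted p = 0.149). In endothelial-like nuclei it was at 58.8 and 39.1 CPM in the WT-CD libraries, 63.9 and 59.3 in those of R403Q-CD and 83.2 and 61.7 in those of R403Q-EMPA, with 0.60 ± 0.21 (adjusted p = 0.288). The R403Q-EMPA libraries were above those of WT-CD in both classes, and in endothelial-like nuclei 1 of them was below an R403Q-CD library. Pfkm in endocardial-like nuclei was at 17.1 and 14.3 CPM in the WT-CD libraries, 24.7 and 24.3 in those of R403Q-CD and 13.3 and 15.4 in those of R403Q-EMPA. It was high in R403Q-CD alone (0.64 ± 0.26 against WT-CD; −0.78 ± 0.26 for R403Q-EMPA against R403Q-CD, edgeR adjusted p = 0.251), while in the same nuclei Pfkp was high in R403Q-EMPA. Ldha has many processed copies in the mouse genome, as do Gapdh, Pgam1, Tpi1 and Eno1, and reads that fit several copies may be lost or split by the authors' counting, so their levels are uncertain.

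The rest of the pathway was read from 49 further symbols in 6 lists, with 50 rows because Aldoa occurs under 2 identifiers; 44 rows passed the filter in cardiomyocyte-like nuclei. Genes of the list named later glycolysis had log2 fold changes mostly above 0 in R403Q-EMPA. That list also holds Gpi1, of a step before phosphofructokinase, and the gene of the liver-type phosphofructokinase subunit. Of 10 tested, 9 had a log2 fold change above 0 against WT-CD, with a median of 0.73; edgeR called 1 higher (4.15% of all genes were called), DESeq2 called 5 (5.15% of all genes), and 8 had an unadjusted p under 0.05 and were higher (9.24% of all genes). Against R403Q-CD the median was 0.50, with 5 of 10 higher at an unadjusted p under 0.05 (5.72% of all genes), 0 called by edgeR and 2 by DESeq2 (1.49% of all genes), and R403Q-CD against WT-CD had a median of 0.19. Leaving out R403Q-EMPA replicate 1, the medians were 0.46 against WT-CD and 0.24 against R403Q-CD, with 9 and 7 of 10 above 0. The share of mitochondrially encoded UMIs in cardiomyocyte-like nuclei was also highest in the R403Q-EMPA libraries, at 1.23% and 1.33% against 0.876% to 1.13% in the other 4, and with no filter on that share the medians were 0.97 against WT-CD, 0.06 against R403Q-CD and 0.67 for R403Q-CD against WT-CD. edgeR then called 7, 0 and 5 of the 10 in the same order (8.05%, 0.310% and 3.71% of all genes), in place of 1, 0 and 0. The gene called in the filtered nuclei was Pgam1, a phosphoglycerate mutase, at 21.7 and 17.0 CPM in the WT-CD libraries, 22.1 and 24.4 in those of R403Q-CD and 39.4 and 33.5 in those of R403Q-EMPA. Both R403Q-EMPA libraries were above the other 4, and the log2 fold change against WT-CD was 0.91 ± 0.18 (edgeR adjusted p = 0.0216). Without R403Q-EMPA replicate 1 the call was lost and the size changed little (0.79, adjusted p = 0.159). Tpi1, triosephosphate isomerase, was at 41.2 and 25.2 CPM in the WT-CD libraries, 31.3 and 32.3 in those of R403Q-CD and 64.8 and 52.2 in those of R403Q-EMPA (0.88 ± 0.22 against R403Q-CD, adjusted p = 0.135). Eno3, the muscle enolase, was the exception below WT-CD, at −0.42 ± 0.17 (unadjusted p = 0.0327). It was as low in R403Q-CD against WT-CD (−0.42 ± 0.17, unadjusted p = 0.0306), and R403Q-EMPA against R403Q-CD was at 0.01 ± 0.17. Eno1, the common form, was at 0.79 ± 0.20 for R403Q-EMPA against WT-CD (unadjusted p = 0.00239).

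Among 4 bifunctional enzymes that set the level of fructose 2,6-bisphosphate, the activator of phosphofructokinase, Pfkfb1 had the clearest difference of all glucose genes examined. It was at 100.2 and 80.2 CPM in the WT-CD libraries, 43.1 and 43.4 in those of R403Q-CD and 17.7 and 24.6 in those of R403Q-EMPA. The 3 groups did not overlap, and R403Q-CD lay between the others. The log2 fold change of R403Q-EMPA against WT-CD was −2.10 ± 0.19 (edgeR adjusted p = 0.00151), and it stayed called under every alternative tried. R403Q-CD differed from WT-CD by −1.06 ± 0.18 (adjusted p = 0.0803) and R403Q-EMPA from R403Q-CD by −1.04 ± 0.19 (adjusted p = 0.0650), neither of which passed by edgeR, while DESeq2 called both (−1.06, adjusted p = 0.00104 and −1.04, adjusted p = 0.00150). Against WT-CD, 2 of the 4 had log2 fold changes above 0 and 2 below in each mutant group. Pfkfb4 was at 5.04 and 4.04 CPM in WT-CD and 2.04 and 2.23 in R403Q-CD (−1.09 ± 0.35, adjusted p = 0.480). Pfkfb2, the cardiac form, was at 122 and 174 CPM in the WT-CD libraries, 224 and 208 in those of R403Q-CD and 166 and 235 in those of R403Q-EMPA, with 0.55 ± 0.22 for R403Q-CD against WT-CD (unadjusted p = 0.0310, adjusted p = 0.663) and 0.44 ± 0.22 for R403Q-EMPA. Pfkfb3 had 0.55 ± 0.38 and 0.75 ± 0.38 in the same comparisons (unadjusted p = 0.180 and 0.0746).

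Of 6 other transporters and uptake regulators, Tbc1d1, a regulator of GLUT4 traffic, was called higher in R403Q-EMPA than in WT-CD, at 4.37 and 6.43 CPM in the WT-CD libraries, 7.96 and 9.69 in those of R403Q-CD and 12.6 and 10.7 in those of R403Q-EMPA. The log2 fold change was 1.12 ± 0.26 (edgeR adjusted p = 0.0424), and the call was lost under most alternatives tried; without R403Q-EMPA replicate 1 the value was 0.99, adjusted p = 0.233. The list as a whole lay mostly below 0. Against WT-CD, 4 of 6 had log2 fold changes below 0 (median −0.56), with 2 lower and 2 higher at an unadjusted p under 0.05 (19.5% of all genes had such a p). Against R403Q-CD, 5 of 6 did (median −0.57), and 3 were lower at an unadjusted p under 0.05 (12.9% of all genes had such a p), with 0 called by edgeR and 0 by DESeq2. Those were Slc2a12, which encodes GLUT12 (−0.58 ± 0.19), Slc2a8, which encodes GLUT8 (−0.57 ± 0.25), and Tbc1d4, another regulator of GLUT4 traffic (−0.60 ± 0.22), with edgeR adjusted p of 0.238 to 0.373. With R403Q-EMPA replicate 1 left out, 4 of 6 lay below 0 (median −0.47) and 0 were lower at an unadjusted p under 0.05. With no mitochondrial filter 1 was. Slc2a3, which encodes GLUT3, was near the detection limit at 0.673 and 0.378 CPM in the WT-CD libraries, 2.45 and 1.63 in those of R403Q-CD and 1.20 and 2.07 in those of R403Q-EMPA (1.91 ± 0.61 for R403Q-CD and 1.58 ± 0.61 for R403Q-EMPA against WT-CD, adjusted p = 0.425 and 0.172). Of 9 genes of pyruvate dehydrogenase and its regulators, 0 were called by edgeR for R403Q-EMPA against R403Q-CD, 0 by DESeq2, and 1 had an unadjusted p under 0.05, beside 0.258%, 1.49% and 12.9% of all genes. Against WT-CD, 3 of 9 had such a p, 2 higher and 1 lower (19.5% of all genes), and 0 were called by edgeR (4.15% of all genes). Pdk4, a kinase that turns the complex off, was at 333 and 107 CPM in the WT-CD libraries, 156 and 519 in those of R403Q-CD and 107 and 108 in those of R403Q-EMPA. Replicates of WT-CD and of R403Q-CD differed widely, and the log2 fold change of R403Q-EMPA against R403Q-CD was −1.66 ± 0.54 (adjusted p = 0.246). Lactate and pyruvate transport (4 tested) and other fates of glucose (11 tested) held 0 calls by edgeR in these nuclei when R403Q-EMPA was set against WT-CD, 0 and 0 by DESeq2 and 1 and 0 at an unadjusted p under 0.05 (4.15%, 5.15% and 19.5% of all genes), with medians of 0.27 and 0.12.

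**Figure D5:**
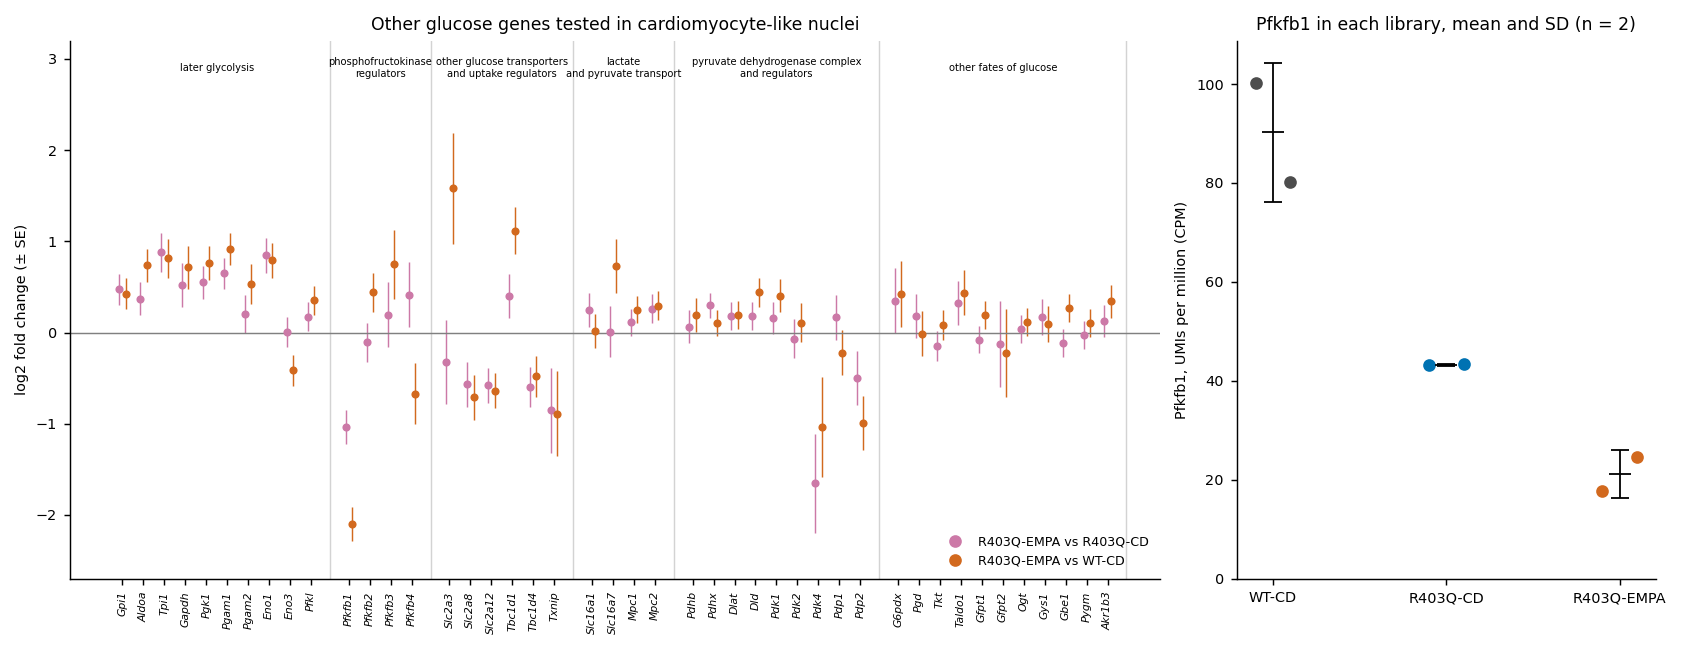
At left, fitted log2 fold change (y axis; bars, SE from edgeR) of the listed glucose genes tested in cardiomyocyte-like nuclei, by list (x axis), for R403Q-EMPA against R403Q-CD and against WT-CD, which share libraries. At right, Pfkfb1 in CPM in each library with the mean and SD of 2, which falls in separate bands of 100.2 and 80.2, 43.1 and 43.4 and 17.7 and 24.6 CPM.

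In other classes, 4 of 297 pairs of a listed gene and a class were called, or 1.35%, beside 0.948% of all pairs in these classes. All 4 were lower in R403Q-EMPA than in WT-CD; 0.394% of all pairs in these classes were called lower. Pfkfb3, an inducible form of the same enzyme family, was at 38.7 and 46.8 CPM in the WT-CD libraries, 27.0 and 29.0 in those of R403Q-CD and 18.5 and 18.3 in those of R403Q-EMPA in fibroblast-like nuclei (−1.21 ± 0.15, edgeR adjusted p = 0.0158; 1.20% of 15061 genes were called). In endocardial-like nuclei it was at 96.8 and 99.6 CPM in the WT-CD libraries, 94.0 and 85.6 in those of R403Q-CD and 62.3 and 57.3 in those of R403Q-EMPA (−0.71 ± 0.16, adjusted p = 0.0476). In both classes the R403Q-EMPA libraries lay below the other 4, opposite in direction to Pfkp there. Gbe1, the glycogen branching enzyme, was at 113 and 135 CPM in the WT-CD libraries, 100.4 and 105 in those of R403Q-CD and 71.0 and 78.8 in those of R403Q-EMPA in fibroblast-like nuclei (−0.73 ± 0.14, adjusted p = 0.0461). The fibroblast-like class differed in make-up between libraries. Its cluster led by genes such as Cilp, Thbs4 and Postn held 579 of 1657 and 139 of 1861 nuclei in the R403Q-EMPA libraries. It held 123 of 3678 and 68 of 2579 in WT-CD and 50 of 2382 and 81 of 1975 in R403Q-CD. The part of this in the values of the class was not tested. Slc16a7, the lactate and pyruvate carrier MCT2, was at 64.2 and 68.6 CPM in the WT-CD libraries, 58.2 and 29.2 in those of R403Q-CD and 23.1 and 26.0 in those of R403Q-EMPA in endocardial-like nuclei (−1.44 ± 0.28, adjusted p = 0.0278). In cardiomyocyte-like nuclei both Gbe1 and Slc16a7 were above 0 against WT-CD, without a call. Gbe1 was at 0.39 ± 0.15 in R403Q-CD and 0.27 ± 0.15 in R403Q-EMPA, and Slc16a7 at 0.72 ± 0.29 and 0.73 ± 0.29. DESeq2 did not call Pfkfb3 in endocardial-like nuclei (adjusted p = 0.175), and with no mitochondrial filter Gbe1 in fibroblast-like nuclei was not called (edgeR adjusted p = 0.0650). Without R403Q-EMPA replicate 1 all 4 calls were lost while the sizes changed little, at −1.22, adjusted p = 0.0921 for Pfkfb3 in fibroblast-like and −0.77, adjusted p = 0.247 in endocardial-like nuclei, −0.66, adjusted p = 0.327 for Gbe1 and −1.35, adjusted p = 0.209 for Slc16a7.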

How the data were processed

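Per the labels, nuclei were isolated from frozen left ventricle of 6 mouse samples, and the authors deposited filtered matrices that hold the UMI count of each gene in each nucleus, not normalised. The submitters' processing notes name Cell Ranger 8.0.1 and GRCm39, and whether intronic reads were counted is not given in the sources used here. Groups came from the labels, which name no batch. The gene lists, like the members, were chosen with earlier results of these data known.

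Barcodes with at least 500 UMIs, 300 genes and at most 5% mitochondrially encoded UMIs were kept, and doublets predicted by scrublet (scanpy 1.11.5) were removed. Nuclei were clustered without integration (2000 variable genes, 30 principal components, 15 neighbours, Leiden resolution 1). A cluster was named when at least 3 markers of 1 class were enriched at least 2-fold and seen in at least 10% of its nuclei. UMIs were summed per library and class with at least 20 nuclei in every library, and the sums of all genes past filterByExpr were fitted over the 3 groups with edgeR 4.0.16 (TMM, quasi-likelihood F test, Benjamini-Hochberg adjustment over all genes of 1 class and 1 comparison), with calls made at an adjusted p under 0.05. This procedure was tested on simulated data built from the cardiomyocyte-like class alone. It recovered 71.0% to 80.0% of 2-fold and 100% of 4-fold changes, and 4.28% to 7.57% of its calls were false. The other classes were not simulated. DESeq2 1.42.0 and the other settings were alternatives. No replicate pair differed by as little as sampling noise. The text names all members, each listed gene called in any class, up to 3 listed genes per comparison with the largest differences among those with an unadjusted p under 0.05 in cardiomyocyte-like nuclei, and for each member the 2 genes most like it; Eno1, Eno3, Pfkfb2, Slc2a8, Slc2a12, Tbc1d4 and, in cardiomyocyte-like nuclei, Pfkfb3 were named after their values were seen. The table of promoter windows used here, from RefSeq (GRCm38.p6), matched 9 of the 10 members.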

Additional observations from a re-analysis of the deposited data

Results flagged for a closer look

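For 6 of 210 pairs of a class with cardiomyocyte-like nuclei, both libraries of a group moved one way in that class and both moved the other way in cardiomyocyte-like nuclei, or 2.86%, beside 5.77% over all genes tested in both. The difference between the classes was not tested in any of them. Slc2a1 in myeloid-like nuclei was at 8.31 and 5.59 CPM in the WT-CD libraries, 8.39 and 10.3 in those of R403Q-CD and 5.44 and 1.53 in those of R403Q-EMPA, a log2 fold change of −1.17 for R403Q-EMPA against R403Q-CD, beside 0.75 in cardiomyocyte-like nuclei; this class held 55 UMIs of the gene in all. Hk2 was lower in R403Q-EMPA in cardiomyocyte-like nuclei and higher in endothelial-like nuclei, at 0.20 against R403Q-CD and 0.55 against WT-CD, where its level of 6.95 CPM is within the share of the cardiomyocyte markers. The same holds for endocardial-like nuclei, at 0.54 against WT-CD and a level of 5.12 CPM. Pfkp in smooth muscle-like nuclei was at 181 and 112 CPM in the WT-CD libraries, 94.7 and 41.6 in those of R403Q-CD and 154 and 103 in those of R403Q-EMPA, a log2 fold change of −1.16 for R403Q-CD against WT-CD beside 0.47 in cardiomyocyte-like nuclei, from 82 UMIs in all. Pdha1 in lymphoid-like nuclei had −0.51 in the same comparison, from 55 UMIs, beside 0.19.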

How the results depend on the processing

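The number of calls changed with the settings. Leaving out each library in turn, the members called in cardiomyocyte-like nuclei numbered 0 to 0 for R403Q-CD against WT-CD, 0 to 1 for R403Q-EMPA against R403Q-CD and 0 to 1 for R403Q-EMPA against WT-CD, and the pairs of a member and a class 0 to 0, 0 to 2 and 0 to 4. Without R403Q-EMPA replicate 1 there were 0 calls in any of these counts. With all genes above 0 UMIs tested, the count in cardiomyocyte-like nuclei was 1 for R403Q-EMPA against R403Q-CD and 3 for R403Q-EMPA against WT-CD, and the pairs numbered 3 and 7. The share of all genes called in that setting is not given, so these counts were not read against it. With no mitochondrial filter, 2 members (Ldha and Pdha1, or 2 pairs) were called for R403Q-CD against WT-CD and 0 pairs for R403Q-EMPA against R403Q-CD. For R403Q-EMPA against WT-CD, 3 members and 4 pairs were called. The shares of all genes called in cardiomyocyte-like nuclei without that filter are given above with later glycolysis. Those over all pairs are not given. DESeq2 and keeping predicted doublets each gave 0 pairs for R403Q-EMPA against R403Q-CD. A fit of only the 2 groups compared gave 0 members and 1 pair for R403Q-EMPA against WT-CD, and the largest cardiomyocyte-like cluster alone, chosen after seeing the data, gave 0 members. Without the mitochondrial filter the Ldha share differed by 5.23 points for R403Q-CD minus WT-CD and 1.84 for R403Q-EMPA minus R403Q-CD. The cause of these shifts was not tested.

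Some uncalled fold changes turned in direction. Over the libraries left out, the log2 fold changes of R403Q-CD against WT-CD ran as Slc2a1 −0.23 to 0.81, Hk2 −0.19 to 0.097, Ldhb −0.062 to 0.22, Ldha −0.040 to 0.33, Pkm −0.19 to 0.056, Hk1 −0.58 to 0.20, Slc2a4 −0.22 to 0.088 and Pfkm −0.23 to 0.076; those of R403Q-EMPA against R403Q-CD as Ldhb −0.26 to 0.12, Pkm −0.31 to 0.13 and Slc2a4 −0.33 to 0.040; and those of R403Q-EMPA against WT-CD as Ldhb −0.18 to 0.21, Pkm −0.37 to 0.064 and Hk1 −0.21 to 0.58. With no mitochondrial filter, Pkm was at 0.22 and Slc2a4 at 0.033 for R403Q-CD against WT-CD, and Ldha at −0.16 and Pdha1 at −0.23 for R403Q-EMPA against R403Q-CD. In the largest cluster alone, Pfkm was at 0.0016 for R403Q-CD against WT-CD and Ldhb at 0.087 for R403Q-EMPA against R403Q-CD. Of all fold changes of single genes recomputed, 677 stayed on their side of the threshold and in direction, 24 gained a call, 43 lost one and 26 turned.

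No paired analysis was possible because replicates were numbered in the order of deposit, which pairs no libraries. With 2 libraries a group, a left-out library leaves a group of 1, whose spread is then assumed to be that of the other groups.  Nuclear UMIs miss cytoplasmic RNA, and levels below about 10 CPM, such as Slc2a1 and Slc2a3, rest on few UMIs in the smaller classes.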

Other observations

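Within cardiomyocyte-like nuclei, other members also differed between the clusters, as values from the same libraries with no test and without TMM scaling. Hk2 in cluster 9, the largest, was at 221 and 156 CPM in the WT-CD libraries, 182 and 182 in those of R403Q-CD and 171 and 144 in those of R403Q-EMPA. In cluster 14 it was at 154 and 125, 131 and 144 and 168 and 128 CPM, lower than in cluster 9 in 6 of 6 libraries. Hk1 was at 94.8 and 145, 97.2 and 103 and 159 and 102 CPM in cluster 9 and at 129 and 137, 137 and 116 and 177 and 119 in cluster 14, higher there in 5 of 6 libraries. Slc2a4 was at 99.2 and 69.0, 79.7 and 83.2 and 77.6 and 88.9 CPM in cluster 9 and at 91.5 and 64.1, 75.1 and 68.5 and 61.3 and 77.0 in cluster 14, lower there in 6 of 6. Ldhb was at 219 and 179.9, 228 and 204 and 218 and 256 CPM in cluster 9 and at 172 and 153, 187 and 148 and 164 and 191 in cluster 14, also lower there in 6 of 6. Slc2a1 was at 9.86 and 3.60, 6.12 and 7.68 and 12.5 and 8.45 CPM in cluster 9 in the order of the groups above; in cluster 14 each WT-CD library held 1 UMI of it, and the R403Q-CD libraries were at 9.66 and 12.5 CPM and the R403Q-EMPA libraries at 21.7 and 8.97. Pfkm, Pkm and Pdha1 were each lower in cluster 14 than in cluster 9 in 5 of 6 libraries and Ldha in 4 of 6. Cluster 14 had only 40 and 21 nuclei in the WT-CD libraries, so these counts of libraries rest on few UMIs there. Ldha in WT-CD replicate 2 was at 30.5 CPM in cluster 14, from 10 UMIs, and at 30.7 in cluster 9. Cluster 7, with 82 to 388 nuclei a library, had Pkm higher than cluster 9 in 6 of 6 libraries, Pdha1 in 5 of 6 and Ldha in 4 of 6, Pfkm lower in 5 of 6, and Hk2 and Ldhb lower in 4 of 6.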
